A study of Homo sapiens with 8 samples.

Results

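The genes of the proteasome were followed in 786-O, a long-established line from a human kidney carcinoma that has lost VHL function. Cells were kept for 6 h with pentamidine at 25 µM or with DMSO, the vehicle. Pentamidine belongs to the aromatic diamidines and is given against protozoal infections. Both groups were the same line grown in RPMI medium with fetal bovine serum, and the labels name no difference between them other than the drug. Affymetrix arrays of 2 types were used, each with 2 DMSO and 2 pentamidine arrays, which the labels call biological duplicates. Whether the second type carried the same RNA extracts as the first is not stated, so each type was analysed apart. The members were the probe sets whose only annotated gene symbol begins with PSMA, PSMB, PSMC, PSMD, PSME, PSMF or PSMG. There were 89 of them among 44942 probe sets, 65 on the first array type and 24 on the second. They covered 47 of the 17014 symbols that stood alone on a probe set. Of these, 44 name proteasome subunits, activators, an inhibitor or assembly factors, and 3 only begin with the same letters: PSMC3IP, PSME3IP1 and PSMA3-AS1. No single-symbol probe set was found for PSMB11, PSMC5, PSMD7 or PSMD13, which were not analysed here.

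The proteasome degrades proteins tagged with ubiquitin. Its 20S core is a barrel of stacked rings, with alpha subunits (PSMA) forming the outer rings and gate and beta subunits (PSMB) the inner rings, where PSMB5, PSMB6 and PSMB7 carry the active sites. The 19S cap recognises ubiquitin, removes it and unfolds the substrate with a ring of ATPases (PSMC) and a lid and base of further subunits (PSMD). Interferon gamma induces PSMB8, PSMB9 and PSMB10, which replace the catalytic beta subunits in the immunoproteasome, and the activator subunits PSME1 and PSME2. The transcription factor NFE2L1 raises the subunit genes together when the proteasome is inhibited.

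The line's markers matched its label on the first array type, where PAX8, EPAS1, VIM, CDH2 and KRT18 were brighter than the median probe set, PAX2 was dim, and CA9 was not analysed here. Of the 4 leukocyte markers on that type, PTPRC, CD3D and CD14 lay under the low-value filter and CD74 measured 147 to 192. Their summed intensity was 179 to 246 in DMSO and 161 to 241 in pentamidine, and no endothelial marker passed the filter. Fibroblast markers summed to 1131 to 1261 in DMSO and 1142 to 1163 in pentamidine, most of it LUM. The ratios of 3′ to 5′ signal of the control transcripts, a measure of RNA and labelling quality, overlapped between the groups on the first type. On the second type they were lower in both pentamidine arrays for ACTB (1.47 and 1.27 in DMSO, 1.23 and 1.21 in pentamidine), for GAPDH (0.843 and 0.806 against 0.716 and 0.677) and for ISGF3A (4.70 and 2.73 against 2.15 and 2.52). The part of this difference in the results of the second type was not tested.

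On the first array type every one of the 41 subunit and factor genes measured was brighter than the median probe set tested, with intensities between 434 and 9080 on single arrays. Each gene is given by its brightest probe set, a choice that favours high levels. Of the 65 member probe sets 62 passed the filter, of which 59 were brighter than the median probe set tested. The other 3, further ones of PSMB1, PSMD4 and PSMD5, measured 1.24 to 27.2. No gene passed the test with pentamidine: 0 of 41 were called at an adjusted p under 0.05 (limma with a variance trend, Benjamini-Hochberg over all 15550 probe sets), where 0% of all probe sets were called, and the smallest adjusted p of any of them was 0.888. At an unadjusted p under 0.05 there were 3 of the 41, PSMD11, PSME1 and PSME3, beside 5.13% of all probe sets and 6.29% of those brighter than the median. Without the variance trend 0 of the 41 lay under the unadjusted threshold, beside 4.8% of all probe sets, and 0 probe sets were called at the adjusted one. The genes stood 21 above and 20 below DMSO, beside 53.9% of all probe sets and 48.2% of the brighter ones above it. Their log2 fold changes had a median of 0.01 and ran from -0.29 to 0.39, which is at most 1.31-fold either way. Quantile normalization put 20 above DMSO and median centring 15. The median over all probe sets tested was 0.02 on this scale and that over the brighter ones -0.01.

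The width of the intervals on this type depended on the variance model. With the trend the 95% interval of limma lay within 1.5-fold of DMSO in both directions for 36 of the 41 genes, beside 73% of the probe sets brighter than the median, and without it for 28, beside 45.9%. It lay within 2-fold for all 41 with the trend, beside 97.9%, and for 40 without it, beside 92.3%, the exception being PSMD11. The standard deviation between the arrays of a group had a median of 0.0845 log2 units over the 41 genes and of 0.132 over the brighter probe sets. It was 0.199 over all probe sets tested, so it depended on the level. The 41 genes were not compared with probe sets of matched level, for this spread or for the intervals. The groups did not overlap for 15 of the 41 genes (36.6%), beside 35.2% of all probe sets tested and 36% of the brighter ones. Pentamidine was the higher group without overlap in 5 of the 41 genes, beside 19.4% of all probe sets. These were PSMA6, PSMA7, PSMD12, PSMD14 and PSME3. It was the lower group in 10 of the 41, beside 15.7% of all probe sets. These were PSMA2, PSMA3, PSMA4, PSMB1, PSMB3, PSMB6, PSMB9, PSME1, PSMF1 and PSMG1.

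**Figure D1:**
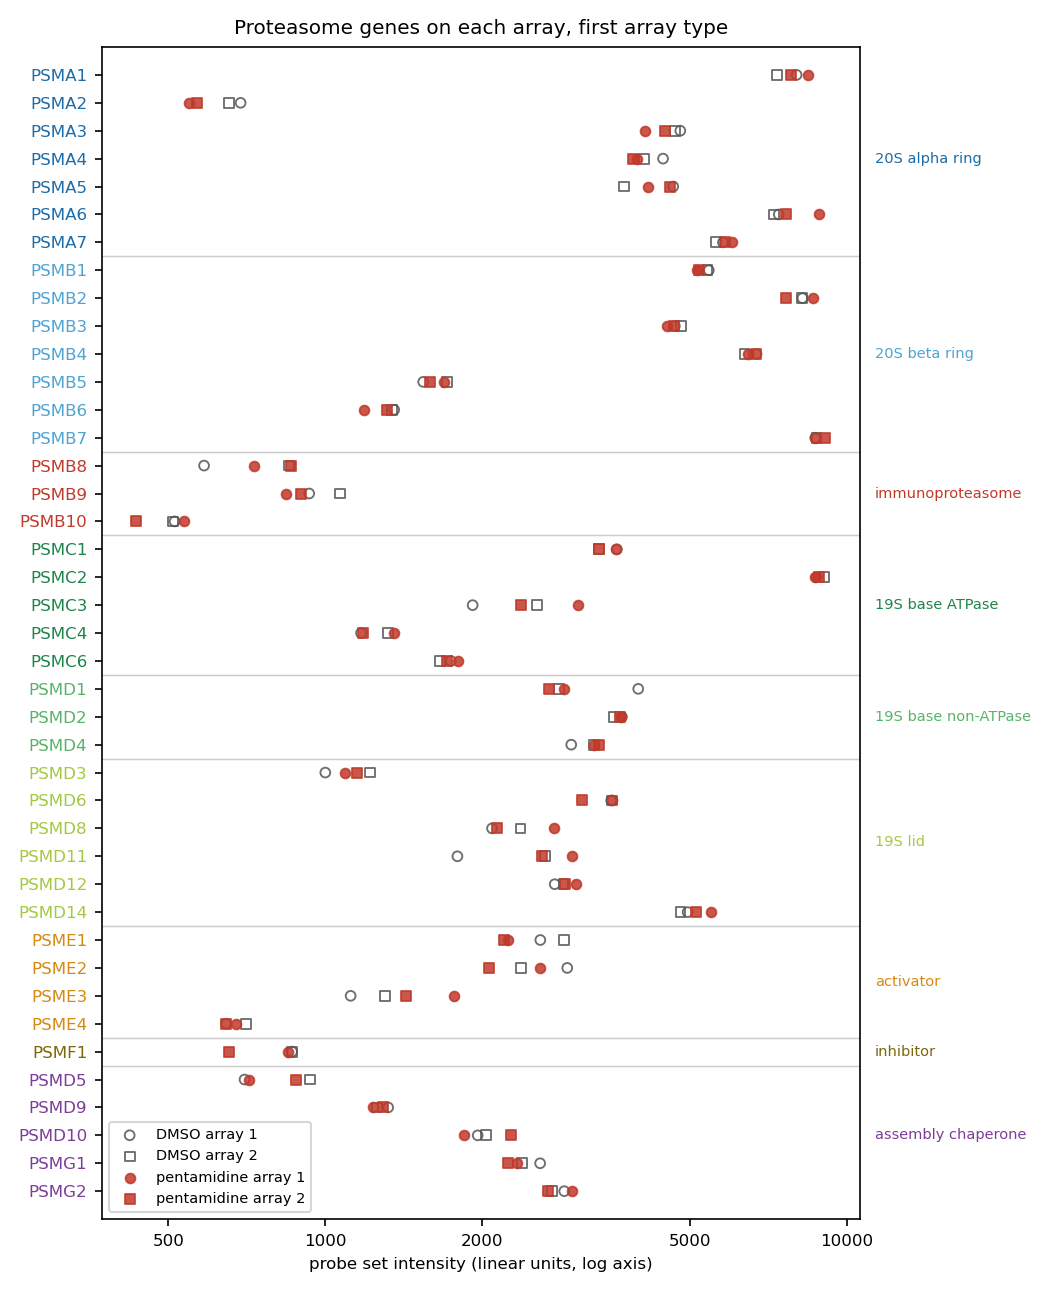
Intensity on a log axis of the 41 subunit and factor genes on the first array type, grouped by role, with 1 point for each of the 2 DMSO and 2 pentamidine arrays. The groups overlap for 26 of the genes, and PSMD11 and PSMD1 have 1 DMSO array apart from the other arrays.

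The 14 genes of the 20S core lay 7 above DMSO and 7 below, and the median of their log2 fold changes was -0.004. Quantile normalization and median centring each left 5 of the 14 above DMSO. None passed the test and none had an unadjusted p under 0.05. The groups did not overlap for 8 of the 14, beside 35.2% of all probe sets and 36% of the brighter ones. Pentamidine was higher without overlap in 2 of the 14, beside 19.4% of all probe sets, and lower in 6 of the 14, beside 15.7%.

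Of the alpha ring, 4 of 7 genes lay above DMSO, and the median over the ring was 0.06 on the log2 scale. PSMA6 measured 7395 and 7246 in DMSO and 8824 and 7627 in pentamidine. The pentamidine arrays were the higher ones, by 0.16 (95% interval -0.06 to 0.39; adjusted p of limma 0.888). PSMA2, another ring subunit, measured 688 and 654 in DMSO and 548 and 567 in pentamidine. Here both pentamidine arrays were the lower ones, at -0.26 (-0.61 to 0.09; adjusted p of limma 0.888). A probe set annotated to both PSMA2 and PVRIG, which the selection left out, gave -0.04. PSMA3, PSMA4, PSMA5, PSMA1 and PSMA7 lay between -0.14 and 0.08.

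The 7 constitutive beta genes lay between -0.11 and 0.03, and all of their 95% intervals lay inside 1.5-fold. Of these genes 3 lay above DMSO, or 1 after quantile normalization or median centring. PSMB5, the chymotrypsin-like subunit and the target of bortezomib, measured 1540 and 1710 in DMSO and 1689 and 1585 in pentamidine. The groups overlapped, with a log2 fold change of 0.01 (-0.28 to 0.30). PSMB6, the caspase-like subunit, measured 1355 and 1340 in DMSO and 1184 and 1311 in pentamidine. Pentamidine was lower on both arrays, more so on the first, at -0.11 (-0.41 to 0.19). PSMB7, the trypsin-like subunit, measured 8689 and 8738 in DMSO and 8695 and 9080 in pentamidine. Its groups overlapped at 0.03 (-0.17 to 0.23). PSMB1, PSMB2, PSMB3 and PSMB4, which carry no active site, gave -0.06, -0.02, -0.05 and 0.01, and a probe set shared by PSMB1 and XAGE3, left out by the selection, gave 0.06. The sign for PSMB5 turned with median centring and that for PSMB7 with quantile normalization.

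The 14 measured genes of the 19S cap lay above DMSO in 10 and below in 4, with a median of 0.04 and 1 unadjusted p under 0.05. Quantile normalization put 11 above and median centring 7. The groups did not overlap for 2 of the 14, PSMD12 and PSMD14, beside 35.2% of all probe sets.

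Among the 5 ATPases measured, PSMC1, PSMC2, PSMC4 and PSMC6 lay between -0.02 and 0.05. PSMC2 measured 8742 and 9045 in DMSO and 8691 and 8844 in pentamidine, and the groups overlapped at -0.02 (-0.22 to 0.18). PSMC3, the ATPase with the highest log2 fold change, measured 1915 and 2543 in DMSO and 3046 and 2372 in pentamidine. Its log2 fold change was 0.28 (-0.06 to 0.62; adjusted p of limma 0.888). The groups overlapped, as the second DMSO array lay above the second pentamidine array. Without the first DMSO array, the lowest of the 4, the value was 0.0794, and without the first pentamidine array, the highest, it was 0.10.

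The base also holds PSMD1 and PSMD2, scaffolds of the cap, and PSMD4, a ubiquitin receptor. PSMD1 measured 3978 and 2799 in DMSO and 2864 and 2686 in pentamidine. The first DMSO array stood alone above the other 3 arrays, and the groups overlapped at -0.27 (-0.59 to 0.06; adjusted p of limma 0.888). Without that DMSO array the value was -0.01, and without the other it was -0.52. PSMD4 measured 2960 and 3268 in DMSO and 3266 and 3346 in pentamidine, and overlapped at 0.09 (-0.16 to 0.34). PSMD2 gave 0.02.

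In the lid, 5 of 6 genes lay above DMSO, or 4 after median centring. PSMD11, a lid subunit, measured 1791 and 2638 in DMSO and 2970 and 2605 in pentamidine. The first DMSO array was the low one and the other 3 overlapped, so that the log2 fold change of 0.35 (0.00113 to 0.71; unadjusted p 0.0494, adjusted p of limma 0.888) came with overlapping groups. Without the first DMSO array it was 0.08. Without the second, where a single DMSO array stood for the vehicle, it was 0.63 with an adjusted p of 0.00774 by limma, and PSMD1 was then called too, at an adjusted p of 0.0395, while 494 of all probe sets were called. PSMD14, the deubiquitinase of the lid, measured 4946 and 4793 in DMSO and 5492 and 5137 in pentamidine, with both pentamidine arrays higher by 0.13 (-0.10 to 0.35). PSMD6 measured 3530 and 3545 in DMSO and 3539 and 3110 in pentamidine, overlapping at -0.09 (-0.34 to 0.16). PSMD3, PSMD12 and PSMD8 gave 0.02, 0.07 and 0.12.

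**Figure D2:**
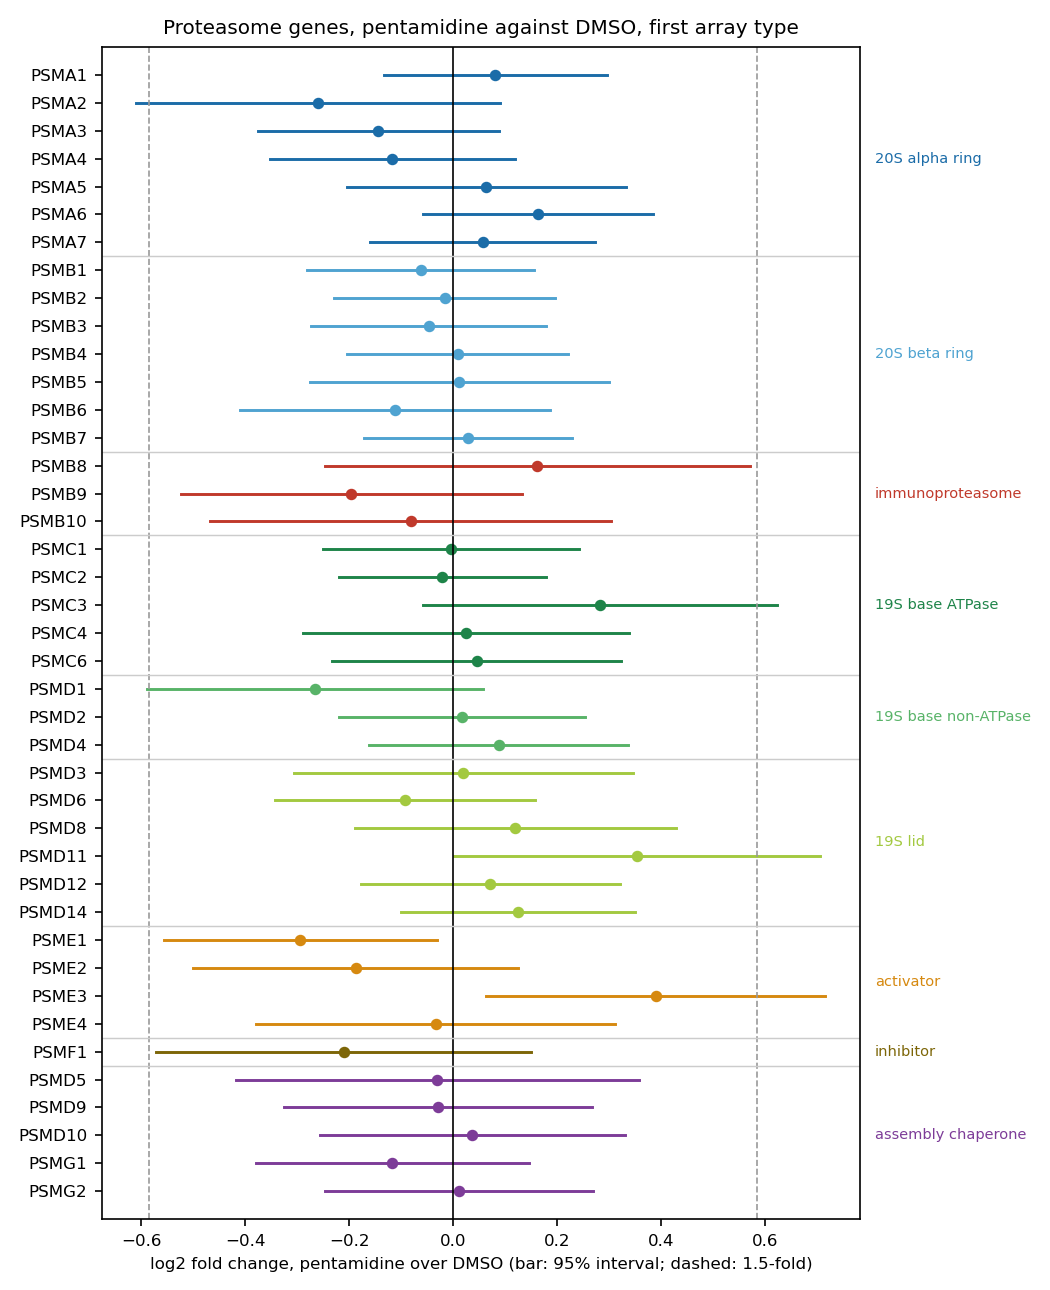
Log2 fold change of pentamidine over DMSO, with its 95% interval from limma, for the 41 subunit and factor genes on the first array type, grouped by role. Values run from -0.29 for PSME1 to 0.39 for PSME3 and no gene passed the test.

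The 3 immunoproteasome subunits were measured in cells for which the labels name no interferon treatment, and none passed the test. PSMB8 measured 586 and 851 in DMSO and 730 and 860 in pentamidine. The groups overlapped at 0.16 (-0.25 to 0.57), and leaving out the first DMSO array turned the sign to -0.10. PSMB9 measured 931 and 1067 in DMSO and 841 and 897 in pentamidine. The pentamidine arrays lay below both DMSO arrays, at -0.20 (-0.52 to 0.13; adjusted p of limma 0.889). PSMB10 measured 514 and 510 in DMSO and 537 and 434 in pentamidine, which overlapped at -0.08 (-0.47 to 0.30).

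The 4 activator genes held both ends of the range. PSME1 measured 2582 and 2871 in DMSO and 2239 and 2197 in pentamidine. Each pentamidine array lay below each DMSO array, at -0.29 (-0.56 to -0.03; unadjusted p 0.0312, adjusted p of limma 0.888). Its partner PSME2 measured 2908 and 2371 in DMSO and 2580 and 2058 in pentamidine, which overlapped at -0.19 (-0.50 to 0.13). PSME3, the subunit of the nuclear activator that works without ubiquitin, measured 1118 and 1302 in DMSO and 1761 and 1428 in pentamidine. Each pentamidine array lay above each DMSO array, at 0.39 (0.06 to 0.72; unadjusted p 0.0229, adjusted p of limma 0.888). The other probe sets of PSME3 gave 0.21, -0.03 and -0.08, so the value rests on one of 4. The large activator PSME4 lay at -0.03.

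The first array type also covered the regulators of the complex. PSMF1, an inhibitor of the 20S core, measured 864 and 863 in DMSO and 848 and 652 in pentamidine. The pentamidine arrays were lower, the second by far more, at -0.21 (-0.57 to 0.15; adjusted p of limma 0.889). The value was -0.0247 without that second array and -0.40 without the first. The other probe set of PSMF1 gave -0.0006. The 5 assembly factors lay between -0.12 and 0.04, with PSMD5 and PSMD9 at -0.03 each and PSMG2 at 0.01. PSMG1, a chaperone of the alpha ring, measured 2580 and 2381 in DMSO and 2330 and 2241 in pentamidine, with both pentamidine arrays lower at -0.12 (-0.38 to 0.15). PSMD10, a chaperone of the cap, measured 1959 and 2030 in DMSO and 1847 and 2267 in pentamidine, which overlapped at 0.04 (-0.26 to 0.33).

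Several genes shared letters near their start sites that are known for interferon control. Windows from 250 bases before to 50 after the start were taken from RefSeq (GRCh38.p14) for 38 of the 44 genes. The core of the interferon-stimulated response element, searched as GAAA, any 2 bases and GAAA again, stood on either strand in 7 of the 38 genes, PSMA4, PSMB4, PSMB8, PSMB10, PSME1, PSME2 and PSMG4. They stood in 4.38% of all genes with a window. The exact decamer GAAAGCGAAA stood in 5 of the 38, and in 34 of all 27305 genes with a window (0.125%). PSMB9, the other immunoproteasome gene, has a window that holds neither the core nor the decamer. These 5 are shown because they share the decamer and include PSMB8, PSMB10, PSME1 and PSME2, genes that interferon induces and whose values with the drug are given above. The capitals mark the match, and all are written 5′ to 3′ on the gene's strand, so that TTTCGCTTTC is the same decamer on the other strand. PSMB8 (chr6:32844032-32844061, minus strand) and PSME1 (chr14:24136189-24136218, plus strand) are given as 30 bases, since the match lies across the start of the first and 5 bases after that of the second. PSMB10 (chr16:67936851-67937100, minus strand), PSME2 (chr14:24146611-24146860, minus strand) and PSMG4 (chr6:3258697-3258946, plus strand) are given as the 250 bases before the start, with the match ending 11, 18 and 23 bases from it.
PSMB8: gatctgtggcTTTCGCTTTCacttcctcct
PSMB10: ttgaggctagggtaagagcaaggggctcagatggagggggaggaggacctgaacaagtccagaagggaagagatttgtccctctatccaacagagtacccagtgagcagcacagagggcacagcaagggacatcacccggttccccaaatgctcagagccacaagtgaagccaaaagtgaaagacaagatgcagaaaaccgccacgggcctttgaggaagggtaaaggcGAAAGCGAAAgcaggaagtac
PSME1: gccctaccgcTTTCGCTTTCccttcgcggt
PSME2: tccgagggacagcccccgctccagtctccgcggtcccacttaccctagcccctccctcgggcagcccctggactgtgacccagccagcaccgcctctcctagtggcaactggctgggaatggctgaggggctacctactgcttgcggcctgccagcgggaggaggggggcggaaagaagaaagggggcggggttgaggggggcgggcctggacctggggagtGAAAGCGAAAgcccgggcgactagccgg
PSMG4: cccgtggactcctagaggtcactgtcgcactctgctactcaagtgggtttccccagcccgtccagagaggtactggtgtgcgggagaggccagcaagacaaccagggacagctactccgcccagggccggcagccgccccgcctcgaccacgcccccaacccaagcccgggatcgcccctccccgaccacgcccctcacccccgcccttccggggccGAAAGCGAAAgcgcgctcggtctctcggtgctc
PSMB8 and PSMB9 lie beside TAP1 and TAP2, the peptide transporter genes, on chromosome 6 in the order TAP2, PSMB8, TAP1, PSMB9.

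The letters TGACNNNGC, the core of the antioxidant response element that NFE2L1 and NFE2L2 bind, stood in 14 of the 38 genes and in 16.1% of all genes with a window. Among them were PSMD1, PSMD12, PSMA4, PSMB9, PSME1 and PSMG1. Both sets of letters were kept after 14 had been counted, the window was first the 250 bases alone and was widened after a count, and the decamer was taken up after the sequences were read, so no test is given. The 12 others were found in 0 to 25 of the 38 genes. They were CCAAT (17 genes, 39.7% of all genes with a window), CCGGAAG (13, 12.2%), GGGGCGGGG (11, 18.5%), TTCNNNGAA (8, 9.38%), TATAAA (4, 14%) and TGANNNNGC, which takes in the antioxidant letters (25, 47.1%). A palindromic NRF1 site was in 1 (1.52%). TGACTCAGC, TGACATCA, TTTCGCGC, a kappa-B site and a second form of the NRF1 site were in 0 of the 38 and in 0.227% to 3.18% of all genes with a window. A match is a description of letters and shows no binding.

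Probe sets of one gene often differed in sign. On the first type 14 member symbols had several probe sets that were kept, and 10 of them held values on both sides of 0. The clearest case was PSMA7, an alpha ring subunit. Its brightest probe set measured 5780 and 5599 in DMSO and 6011 and 5832 in pentamidine, with both pentamidine arrays higher by 0.06 (-0.16 to 0.27). Its other probe set measured 1975 and 1944 in DMSO and 1481 and 1416 in pentamidine. There both pentamidine arrays were lower, at -0.43 (-0.71 to -0.15; unadjusted p 0.00501, adjusted p of limma 0.888), the lowest value of any of the 62 member probe sets kept. The second probe set of PSMD11 gave -0.17 and that of PSMD1 0.22, each opposite to the brightest one, and the second of PSMC2 gave 0.17. Whether these probe sets read different transcripts was not tested.

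**Figure D3:**
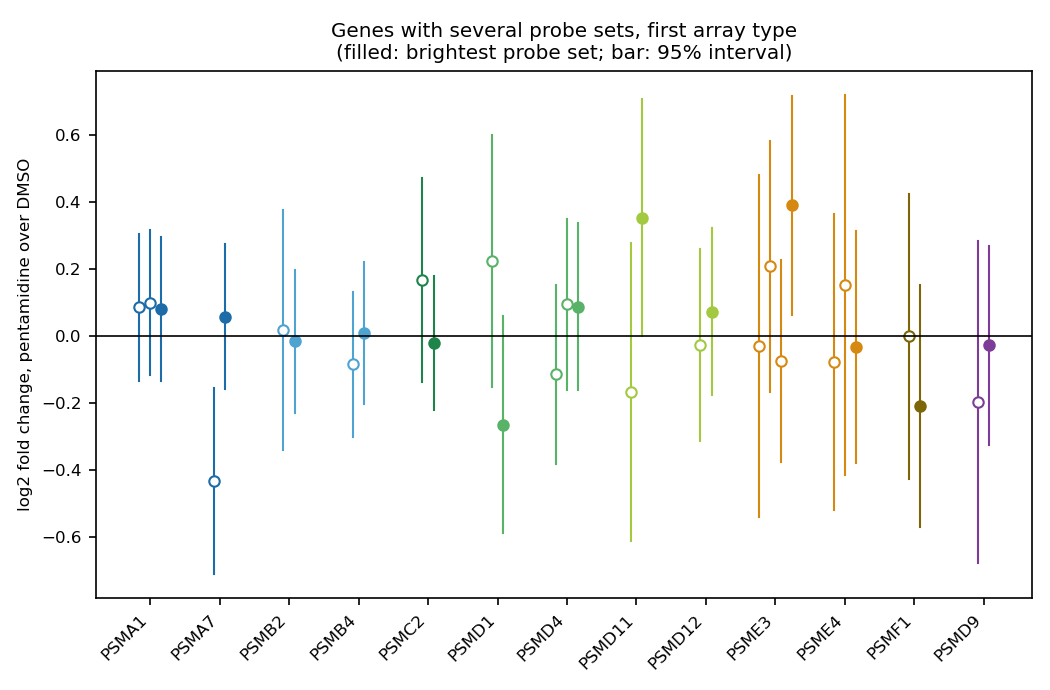
Log2 fold change of pentamidine over DMSO, with its 95% interval, for every kept probe set of the subunit and factor genes with several probe sets on the first array type. Filled points are the brightest probe set of a gene and open points the others, which lie on both sides of 0 for 10 of the genes, most widely for PSMD11, PSMA7, PSMD1 and PSME3.

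The second array type added 24 probe sets, of which 19 passed the filter, and 10 of its 12 subunit and factor genes. The 5 that did not pass, which measured 8.51 to 251, were the one probe set each of PSMA8 and PSMD6 and further ones of PSMA3, PSMB2 and PSMG4. None of the 10 was called, where 0.00633% of the 15804 probe sets were (1, which is not a member, and 0 without the variance trend). PSMB7 passed the filter only through its pentamidine arrays and is given with no test. None of the other genes had an unadjusted p under 0.05 with or without the trend, beside 5.1% and 7.04% of all. Of the 10 genes, 5 lay above DMSO, beside 51.1% of all probe sets, and 5 below, and the median of the log2 fold changes was -0.01. The 5 above include PSMB7 and PSME4, which passed the filter only through pentamidine arrays. Median centring, which moved the median of all probe sets from 0.01 to -0.09, left 4 above. The groups did not overlap for 1 of the 10, that same PSMB7, beside 34.2% of all. The probe sets of this type were less even between arrays, with a median standard deviation of 0.199 log2 units over the 7 genes brighter than the median.

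PSMB7, the one gene of the second type whose groups did not overlap, measured 21.0 and 42.0 in DMSO and 479 and 297 in pentamidine. Both pentamidine arrays were above both DMSO arrays, and both DMSO values lay under 57.5, the lowest mean level that passed the filter, so the probe set passed only through the pentamidine arrays. Its log2 difference was 3.09 with the offset of 16, 3.62 with an offset of 1 and 2.22 with one of 64, and it is given with no test. Another probe set of the gene gave 0.03 on the first type. The PSME4 probe set measured 38.4 and 17.9 in DMSO and 350 and 36.7 in pentamidine. The first pentamidine array alone was high and carried the probe set past the filter, and the groups overlapped at 1.69, or 0.30 without that array. PSMA3 measured 123 and 250 in DMSO and 316 and 184 in pentamidine, overlapping at 0.42 (-1.08 to 1.92).

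The other beta ring and ATPase genes of this type overlapped between the groups. PSMB2, a beta ring subunit and the one member probe set on both array types, measured 31546 and 30069 in DMSO and 31166 and 32353 in pentamidine. The groups overlapped at 0.04 (-0.20 to 0.28), as they did on the first type at -0.02 (-0.23 to 0.20). PSMB4 measured 1423 and 1391 in DMSO and 1698 and 1420 in pentamidine. It overlapped at 0.14 (-0.32 to 0.60). PSMC2 measured 1378 and 1316 in DMSO and 1436 and 1091 in pentamidine, overlapping at -0.10 (-0.60 to 0.39).

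The 3 assembly factors of this type lay below DMSO by their brightest probe sets, also after quantile normalization and median centring. PSMG1 measured 249 and 167 in DMSO and 28.1 and 175 in pentamidine. Only the first pentamidine array was low, and the groups overlapped at -1.26 (-3.30 to 0.78). PSMG3 measured 1363 and 1650 in DMSO and 1090 and 1684 in pentamidine, overlapping at -0.14 (-0.65 to 0.36). PSMG4 measured 2230 and 2540 in DMSO and 2186 and 2374 in pentamidine, overlapping at -0.06 (-0.45 to 0.33), while its 3 dimmer probe sets ranged from -0.79 to 0.83. PSMF1 measured 260 and 359 in DMSO and 391 and 133 in pentamidine, and overlapped at -0.38 (-1.70 to 0.93).

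**Figure D4:**
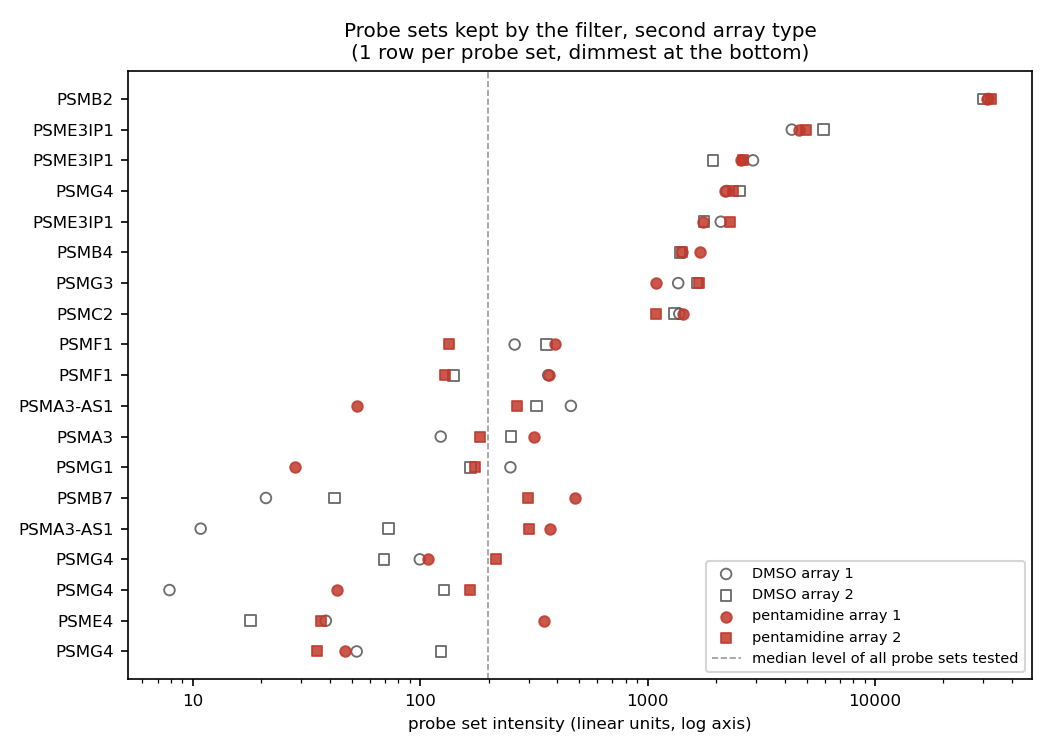
Intensity on a log axis of the 19 member probe sets kept on the second array type, 1 row each, with 1 point for each of the 2 DMSO and 2 pentamidine arrays. The groups do not overlap for 5 of the 19, beside 34.2% of all probe sets. Both pentamidine arrays are higher in 3, PSMB7 (479 and 297 against 21.0 and 42.0), a dimmer probe set of PSMG4 and the dimmer one of PSMA3-AS1. The first and last of these passed the filter only through pentamidine arrays, so their separation is given with no test. Both pentamidine arrays are lower in 2.

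The 3 symbols that are no proteasome part were kept apart. PSMC3IP, a meiotic recombination factor, gave -0.23 on the first type, with both pentamidine arrays lower at 420 and 473 against 533 and 514. PSME3IP1, a partner of PSME3, gave -0.06 on the first type and, with its brightest probe set, -0.07 on the other. PSMA3-AS1, the antisense RNA of PSMA3, measured 460 and 324 in DMSO and 52.5 and 266 in pentamidine with its brighter probe set on the second type, at -1.53. That brighter one did not pass the test (adjusted p of limma 0.902). Its dimmer one measured 10.8 and 72.4 in DMSO and 372 and 299 in pentamidine, at 2.85. The dimmer one also passed the filter through the pentamidine arrays and is given with no test.

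Genes around the proteasome were taken from a list of 41. On the first type 30 were measured, 15 above and 15 below DMSO, beside 53.9% of all probe sets above it. None was called, and 2 lay at an unadjusted p under 0.05, beside 5.13% of all probe sets, or 0 without the variance trend. The groups did not overlap for 10 of the 30, beside 35.2% of all probe sets. ERAP1, which trims peptides for antigen presentation, measured 362 and 699 in DMSO and 985 and 750 in pentamidine. Both pentamidine arrays were higher, at 0.75 (0.22 to 1.29; adjusted p of limma 0.888), with the first DMSO array lowest. ECPAS, a proteasome adaptor, measured 1530 and 1567 in DMSO and 1191 and 1323 in pentamidine, with both pentamidine arrays lower at -0.30 (-0.59 to -0.00456). NFE2L1 measured 2290 and 2385 in DMSO and 1910 and 2088 in pentamidine. Both pentamidine arrays were lower, at -0.22 (-0.49 to 0.04). The ubiquitin gene UBB gave 0.16, the shuttle factor RAD23B 0.26 and TAP2 0.37.

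On the second type 16 of the list were kept, 5 above and 11 below DMSO with a median of -0.27, beside 51.1% of all probe sets above it. None was called, and 4 lay at an unadjusted p under 0.05 (POMP, RAD23B, UBA6 and USP14), beside 5.1% of all probe sets. Without the variance trend 0 lay there. The groups did not overlap for 7 of the 16, beside 34.2% of all probe sets, and the genes named here were picked by moderated t. POMP, the maturation chaperone of the 20S core, measured 1790 and 2604 in DMSO and 1262 and 1327 in pentamidine. POMP was thus lower on both pentamidine arrays, at -0.73 (-1.19 to -0.27; unadjusted p 0.00309, adjusted p of limma 0.861). RAD23B measured 9123 and 8407 in DMSO and 6891 and 5945 in pentamidine, lower in both at -0.45 (-0.74 to -0.16). UBA6, a ubiquitin-activating enzyme, gave -0.35, the deubiquitinase USP14 -0.33, the phosphatase UBLCP1 -0.30 and the shuttle factor UBQLN1 -0.22, each with both pentamidine arrays lower. The 3′ to 5′ ratios of the controls were lower in the same 2 arrays, and their part in these values was not tested. Other probe sets of POMP, RAD23B, UBA6 and USP14 on the first type gave 0.08, 0.26, 0.09 and -0.01.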

How the data were processed

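The deposited values are probe set intensities on a linear scale. The submitters' processing notes name Affymetrix Expression Console for making them. No source used here gives its version or algorithm. The trimmed mean intensity (2% off each end) was equal on the arrays of a type. Probe sets were named by GEO's platform annotation, and the members were chosen by the symbol given there. For the cell markers and the genes around the proteasome, symbols were updated by gene ID to RefSeq. Affymetrix control probe sets and those with a mean log2(intensity + 16) under the 30th percentile were left out. Pentamidine was compared with DMSO on that scale with limma 3.58.1 (lmFit, then eBayes with a variance trend; R 4.3.3), each array type apart, at a Benjamini-Hochberg adjusted p under 0.05. A gene stands for its brightest kept probe set.

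Values per array are given for PSMB5 to PSMB10, the highest and lowest gene of each role on the first type, and each gene kept on the second; PSMD14, PSME2 and the further probe sets of PSMA7 were added after their values were seen. Of the other list, up to 6 genes by moderated t are named. The members, lists and main test were chosen with earlier results of these data known. The filter was first run on the arithmetic mean and then set to the mean of logs after both outputs were seen. The trend fit was tested on simulated data, where its share of false calls was above the nominal one on the first type and slightly above it on the second. The simulated spread depended on the level alone, so these shares need not hold for the arrays themselves. With 2 arrays against 2 the smallest two-sided exact p is 0.333, and the number of arrays limits the precision. Alternatives covered the scaling, filter, offset, variance model, replicate block, probe set choice and leaving out each array.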

Additional observations from a re-analysis of the deposited data

How the results depend on the processing

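No proteasome gene was called under any alternative on either array type, except 2 on the first type, PSMD11 (0.63) and PSMD1 (-0.52), without DMSO array 2, so that the count ranged from 0 to 2 as single arrays were left out; the cause was not tested. The genes' median log2 fold change ranged from -0.0238 to -0.00300 on the first type and from -0.0594 to 0.18 on the second as single arrays were left out. Calls among all probe sets, 0 and 1 in the reported fits, became 8 and 8 with the replicate number as a block, ranged from 0 to 494 and from 0 to 112 as single arrays were left out, and on the second type were 0 without the variance trend and 2 with no filter, with an offset of 64, with a robust prior or with the filter on the arithmetic mean, an alternative chosen after seeing the data. Deviations of same-numbered arrays correlated at 0.00375 and 0.0131 across probe sets, and the block called 0 member genes. Such a correlation shows no shared deviation by replicate number, but cannot tell whether the replicates were run as pairs.

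Among the genes given per array, signs turned at quantile normalization for PSMB7 (-0.00571), at median centring for PSMB5 (-0.0131) and, on the second type, PSMB2 (-0.0582), with the median over probe sets for PSMC2 (0.0736) and PSMG4 (0.35), and without _x_at and _s_at probe sets for PSMC2 (0.17), PSMD11 (-0.17) and PSMG4 (0.77). Among the same genes, leaving out single arrays gave both signs on the first type for PSMB5 (-0.0624 to 0.0868), PSMB7 (-0.00300 to 0.0594), PSMB8 (-0.10 to 0.43), PSMB10 (-0.23 to 0.0663), PSMC2 (-0.0448 to 0.00415), PSMD6 (-0.18 to 0.000776) and PSMD10 (-0.11 to 0.18), and on the second for PSMA3 (-0.0481 to 0.89), PSMC2 (-0.30 to 0.0919), PSMF1 (-1.11 to 0.34), PSMG3 (-0.45 to 0.17) and PSMG4 (-0.16 to 0.0305). Choosing the brightest probe set again without pentamidine array 1, also added after seeing the data, took another probe set for PSME3, at -0.16. Over all 41 genes of the first type, signs turned for 3 at quantile normalization, 6 at median centring, 4 with the median over probe sets and 6 to 9 as single arrays were left out. Over the 10 of the second, 1 turned at median centring, 1 with the median over probe sets and 1 to 2 as single arrays were left out. The cause of these turns was not tested.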
